A study of Mus musculus with 18 samples.

Results

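The clustered protocadherins are cell-surface adhesion proteins encoded by 3 neighbouring gene clusters, alpha, beta and gamma, on mouse chromosome 18. Members were the rows of the counts table whose symbol had the form of a clustered protocadherin and whose gene type was protein coding. That gave 57 of 55416 gene rows: 14 alpha, 22 beta and 21 gamma genes. On GRCm39 they lie on the plus strand between 37063237 (start of Pcdha1) and 37974926 (end of Pcdhgc5). A further row with such a symbol, Pcdhgb8, is a polymorphic pseudogene and was left out.

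Cells were neocortical, from C57BL/6J mice at embryonic stage E14.5. The brain hemispheres spent 24 h in rotating culture (HERO), with human recombinant EPIREGULIN, a ligand of the EGF family, at 50 ng/mL (Epi) or without it (Ctl). Afterwards 3 populations were isolated: radial glia (RG), which are the neural stem cells of the embryonic cortex, their progeny the intermediate progenitors (IP), and neurons (N). This gave Epi RG, Ctl RG, Epi IP, Ctl IP, Epi N and Ctl N with 3 biological replicates each. All groups were cultured, so none is uncultured tissue, and the labels do not state by which markers the populations were isolated.

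Each alpha and gamma gene has its own promoter and its own large variable exon, which is spliced to constant exons common to its cluster; beta genes have a variable exon only. Single neurons are known to use a changing subset of the alternate promoters, whereas the C-type genes (Pcdhac1, Pcdhac2, Pcdhgc3, Pcdhgc4 and Pcdhgc5) at the ends of the alpha and gamma clusters are used more uniformly. The proteins bind their own kind across cells and are known for letting neurites of 1 neuron recognise and avoid each other.

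Total counts were between 15.5 and 34.2 M per library. The alpha members together held 94 to 2247 counts per library, the beta members 524 to 2946 and the gamma members 2044 to 4474. Of the 57 members, 54 passed the filter on low counts, and Pcdhb1, Pcdhb2 and Pcdhga10 did not. The 10 radial glia markers were all lower in Ctl IP and in Ctl N than in Ctl RG, and their summed CPM (counts scaled to a library of 1 M) was 360 to 384 in Ctl IP, 244 to 282 in Ctl N and 4152 to 5238 in Ctl RG. The summed CPM of the 10 neuron markers was 10542 to 11890 in Ctl IP, 9516 to 9885 in Ctl N and 358 to 410 in Ctl RG. The libraries labelled IP therefore carried neuron markers at the level of those labelled N or above it. Of the 8 intermediate progenitor markers, 5 were higher and 1 was lower in Ctl IP than in Ctl RG. In Ctl N, 6 of them were lower and 1 was higher than in Ctl IP. Their summed CPM was 454 to 626 in Ctl IP, 399 to 519 in Ctl N and 322 to 375 in Ctl RG. No marker of these lists was at 0 in all 3 libraries of a group.

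What a count of an alpha or gamma gene stands for follows from the shared exons. In the GENCODE M39 annotation, 9 genes of the region have no exonic base that no other gene of the table covers, and 8 of these had 0 counts in all 18 libraries. The ninth was Pcdhga10, with 14 counts in all. The 8 genes could also be unexpressed, and the counting options were not stated. The counts of a member are taken here as coming largely from bases that it shares with no other gene. These are a median of 2475 bases (46.3% of the exonic bases) in alpha members, 3726 bases (100%) in beta members and 2622 bases (53.7%) in gamma members. In the 21 gamma members, none of these bases lies in or past the constant exons; among alpha members only Pcdha11 has such bases there, 500 of 1268. Pcdha4 has only 404 unshared bases, so its count is low for the length of the gene. Of all 50-base stretches within unshared bases, a median of 10.3% in alpha, 3.33% in beta and 0.804% in gamma also occur in another member. The highest share was 25.3%, in Pcdha7. Reads of such stretches could be split between members, so alpha values are the least certain.

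All 3 clusters were at a higher summed level in IP and N than in RG, and the clusters differed in how much. Alpha members together reached 84.9 ± 6.90 CPM in Epi IP and 54.3 ± 2.24 in Epi N, against 5.74 ± 0.671 in Epi RG (SD, n = 3 each, as for all values with ±, unless SE is named). In control cultures the alpha sum was 77.2 ± 7.95 CPM in Ctl IP and 49.9 ± 5.49 in Ctl N, against 5.98 ± 1.19 in Ctl RG. The alpha sum was thus 14.8 times as high in Epi IP as in Epi RG and 12.9 times as high in Ctl IP as in Ctl RG. No IP or N library overlapped an RG library.

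The beta sum was 112 ± 11.3 CPM in Epi IP and 87.7 ± 4.21 in Epi N, against 27.8 ± 0.661 in Epi RG. In control cultures it was 106 ± 15.8 in Ctl IP and 88.9 ± 2.78 in Ctl N, against 25.8 ± 2.98 in Ctl RG, a ratio of 4.10 for IP over RG and 3.44 for N over RG. The gamma sum changed least. It was 167 ± 6.03 CPM in Epi IP and 187 ± 8.61 in Epi N, against 104.4 ± 7.83 in Epi RG, and 161 ± 6.71 CPM in Ctl IP and 181 ± 2.78 in Ctl N, against 106 ± 7.53 in Ctl RG. Its ratios were 1.52 for Ctl IP over Ctl RG and 1.71 for Ctl N over Ctl RG, and without TMM scaling factors 1.22 and 1.37. Scaling factors were 1.12 to 1.21 in RG libraries and 0.895 to 0.956 in the others, so unscaled ratios against RG are smaller for every cluster. In bulk samples, fewer cells that express a gene and less RNA per cell cannot be told apart.

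**Figure D1:**
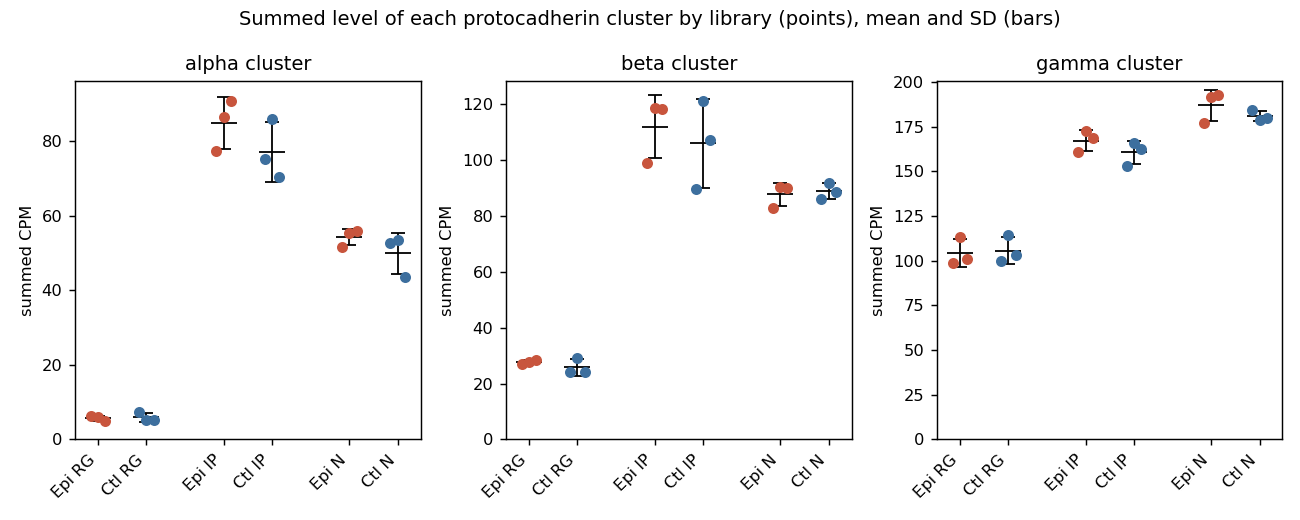
Summed CPM (y axis) of the alpha, beta and gamma members in each of the 18 libraries (points: red for Epi, blue for Ctl), with the mean and SD of each group of 3 as bars. The alpha sum is at most 7.36 CPM in RG and at least 43.6 in every IP and N library, while the gamma sum lies between 98.9 and 114 CPM in RG and between 153 and 192 in IP and N.

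The make-up of the family's transcripts shifted with it. Alpha members held 22.5 ± 1.54% of the members' counts in Ctl IP and 15.6 ± 1.42% in Ctl N, against 4.39 ± 1.08% in Ctl RG. Gamma members held 46.8 ± 2.01% in Ctl IP and 56.6 ± 1.28% in Ctl N, against 76.9 ± 0.894% in Ctl RG. In Epi cultures gamma members held 46.0 ± 1.56% in Epi IP and 56.8 ± 0.0594% in Epi N, against 75.6 ± 1.20% in Epi RG. Gamma transcripts therefore made up most of the members' counts in RG libraries and, by a smaller margin, in N libraries. In IP libraries their share was at most 48.2%. Both IP and N libraries held more of the other clusters than RG libraries did.

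**Figure D2:**
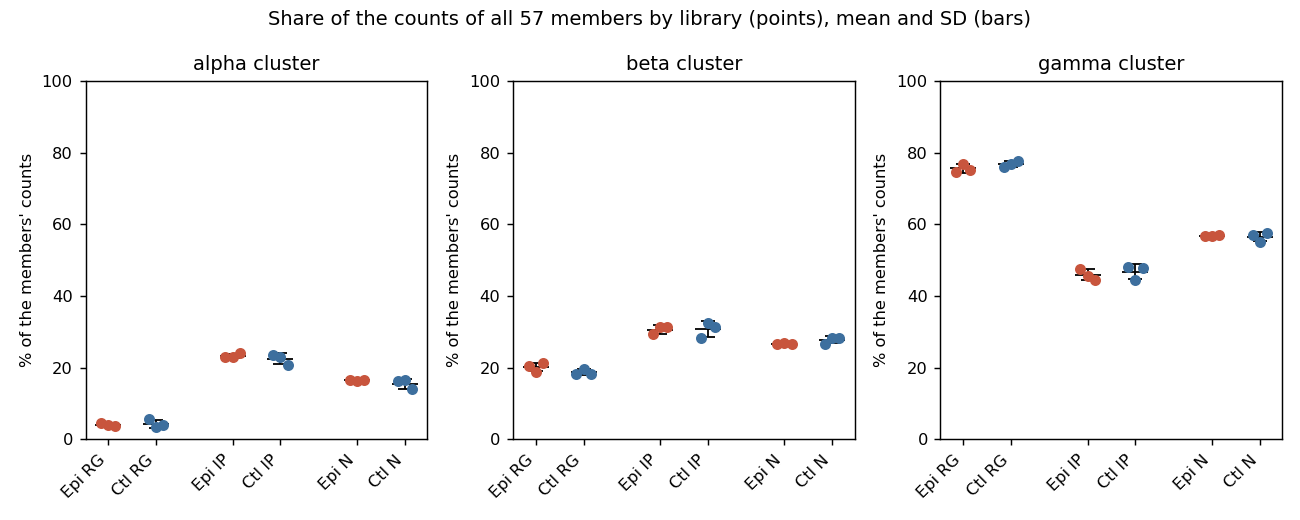
Percentage of the counts of all 57 members (y axis, 0 to 100) that fell to each cluster, per library (points: red for Epi, blue for Ctl), with the mean and SD of each group of 3. The gamma share is at least 74.8% in all 6 RG libraries and at most 57.7% in all 12 IP and N libraries.

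Levels were compared between members per kilobase of unshared exon. Pcdhgc4, a gamma C-type gene that mouse mutants have shown to be needed for neuronal survival, was highest in each of the 6 groups, with a mean of 14.6 CPM per kb over the 18 libraries. Pcdhga12, the last alternate gene of the gamma cluster, had a mean of 10.6 CPM per kb and was second in each group but Epi IP, where the mean of Pcdha8 was slightly higher. Members further down the order differed between populations. In Epi RG and Ctl RG the next member was Pcdhgb4, at 2.52 and 2.34 CPM per kb. Pcdha8 was at 9.27 CPM per kb in Ctl IP and 6.64 in Ctl N, against 0.400 in Ctl RG. Pcdhb17 was at 4.54 CPM per kb in Ctl IP and 3.79 in Ctl N, against 0.843 in Ctl RG. Differences in this order were not tested. Pcdhgc4 and Pcdhga12 together gave 63.1 ± 3.38% of the gamma sum in Epi IP, 63.6 ± 1.39% in Epi N and 55.2 ± 5.72% in Epi RG. Pcdhgc4 had the most counts of the gamma members in 18 of 18 libraries, Pcdhb17 of the beta members in 16, with Pcdhb7 first in the other 2. In alpha, Pcdha8 led in all 12 IP and N libraries and Pcdhac2, a C-type gene known from the spacing of serotonergic axons in mice, led in all 6 RG libraries.

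**Figure D3:**
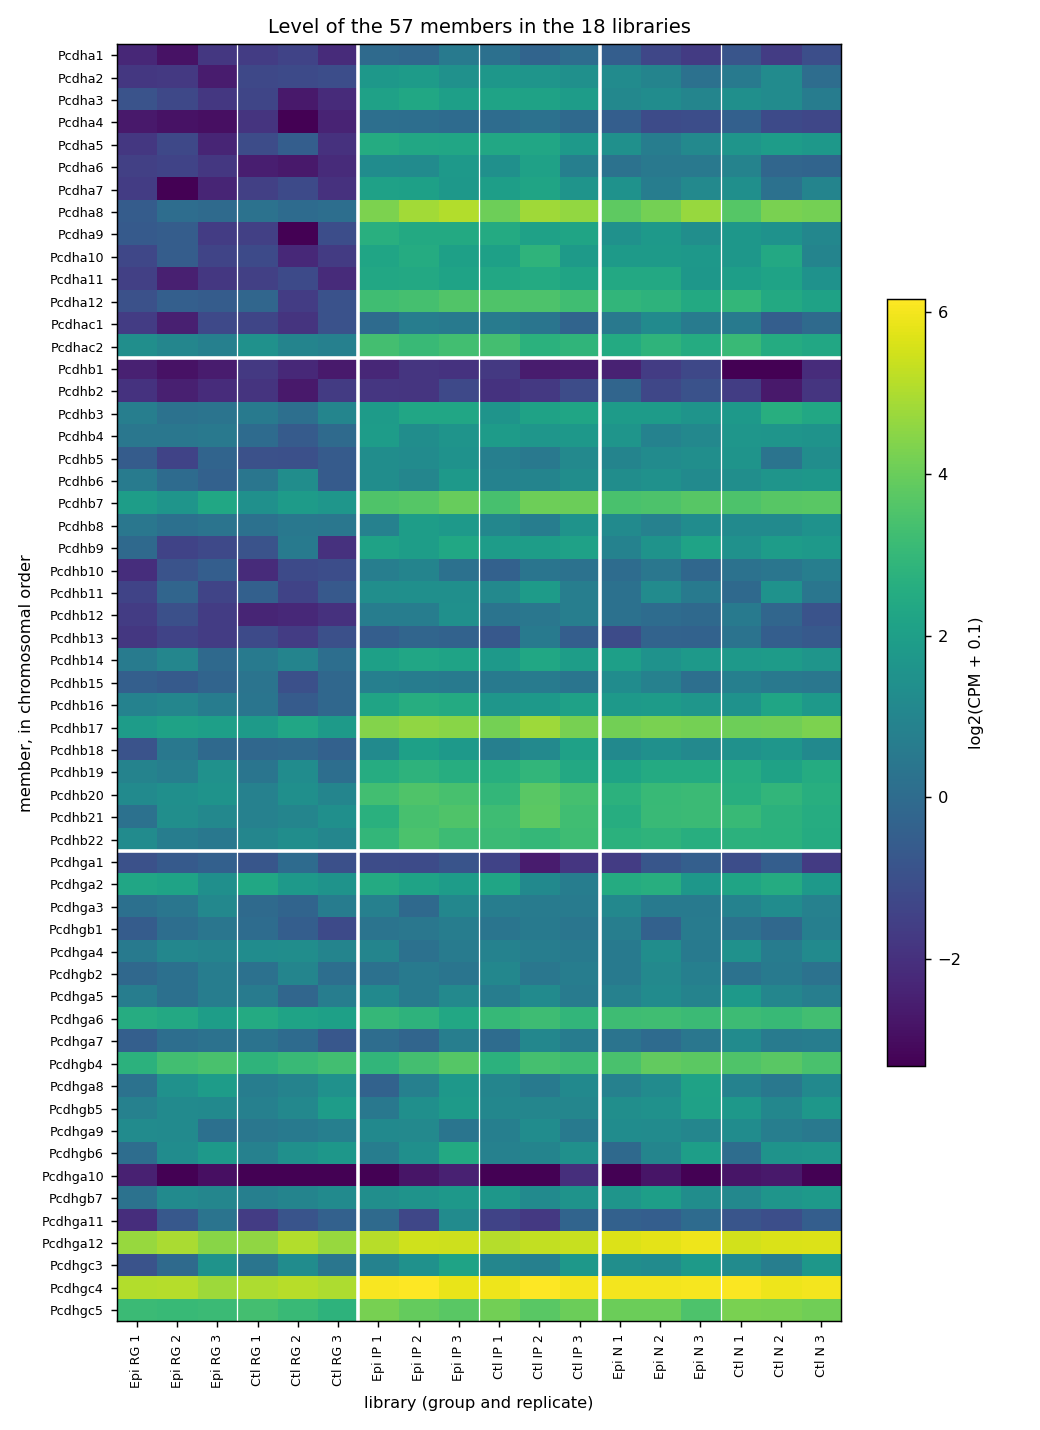
Level of each of the 57 members (rows, in chromosomal order within alpha, beta and gamma) in each of the 18 libraries (columns), as log2(CPM + 0.1), from dark (low) to yellow (high). Alpha rows are dark in RG and lighter in IP and N, Pcdhgc4 and Pcdhga12 are bright in all libraries, and Pcdhga10 is dark throughout.

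How evenly a cluster's counts were spread was put as an effective number of isoforms, the exponential of the Shannon entropy of the members' shares. Alpha counts were spread over 9.55 ± 0.937 effective isoforms in Ctl IP, 8.68 ± 1.22 in Ctl N and 8.39 ± 0.735 in Ctl RG, out of 14. Beta counts were spread over 13.7 ± 0.824 in Ctl IP, 14.4 ± 0.390 in Ctl N and 15.6 ± 1.02 in Ctl RG, out of 22. Gamma counts were the most concentrated, with 6.93 ± 0.352 in Ctl IP, 7.31 ± 0.0437 in Ctl N and 8.66 ± 0.416 in Ctl RG, out of 21. In alpha the libraries of the 3 groups overlapped, in beta those of Ctl IP lay below those of Ctl RG, and in gamma those of Ctl IP and Ctl N lay below those of Ctl RG. In Epi cultures gamma counts were spread over 7.25 ± 0.907 effective isoforms in Epi IP and 7.26 ± 0.143 in Epi N, against 9.01 ± 1.38 in Epi RG. There the gamma libraries of Epi N lay below those of Epi RG, but those of Epi IP overlapped them, with 8.28 in replicate 3 of Epi IP and 7.84 in replicate 1 of Epi RG. Without C-type members alpha values were 8.19 ± 0.854 in Ctl IP, 7.29 ± 1.19 in Ctl N and 8.67 ± 0.996 in Ctl RG. The alpha libraries again overlapped. In gamma, Ctl IP libraries (6.51 to 7.39) then overlapped those of Ctl RG (6.97 to 8.33). Those of Ctl N (6.36 to 6.86) still lay below Ctl RG.

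In the alpha cluster, every member rose in IP relative to RG. With edgeR's quasi-likelihood test and Benjamini-Hochberg adjustment over 29355 genes, 14 of 14 tested alpha members were higher in Epi IP than in Epi RG, and 14 of 14 in Ctl IP than in Ctl RG. Over all genes tested, 23.2% were higher in Epi IP than in Epi RG and 22.7% in Ctl IP than in Ctl RG, 19.6% and 18.6% were lower, and 42.7% and 41.3% were called in either direction. The median log2 fold change of alpha members was 4.02 in Epi cultures and 4.12 in Ctl cultures, beside -0.07 and -0.06 over all genes tested. In N relative to RG, 14 of 14 alpha members were higher in Epi cultures (21.4% of all genes, with 18.3% lower and 39.7% called either way) and 13 of 14 in Ctl cultures (21% of all genes, with 17.7% lower and 38.7% either way).

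Pcdha8, an alternate alpha isoform, had 19.6, 28.8 and 33.7 CPM in Epi IP and 14, 18 and 25.6 in Epi N, against 0.577, 0.943 and 0.867 in Epi RG. In control cultures it had 16.6, 27.6 and 24.6 CPM in Ctl IP and 12.5, 19.0 and 17.9 in Ctl N, against 1.10, 0.894 and 0.981 in Ctl RG. Every IP and N library was above every RG library, and replicate 1 was the lowest in each of the IP and N groups. Its log2 fold change was 5.12 ± 0.30 (SE) in Epi IP over Epi RG (adjusted p = 3.07e-12, edgeR) and 4.50 ± 0.29 in Ctl IP over Ctl RG (adjusted p = 1.76e-11). In N over RG it was 4.60 ± 0.30 in Epi cultures and 4.02 ± 0.29 in Ctl cultures.

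Pcdha12, the last alternate alpha gene, had 11.6, 11.3 and 9.48 CPM in Ctl IP and 7.71, 5.32 and 4.32 in Ctl N, against 0.780, 0.223 and 0.429 in Ctl RG. The 3 groups did not overlap. Its log2 fold change was 4.36 ± 0.31 (SE) in Ctl IP over Ctl RG and 3.46 ± 0.31 in Ctl N over Ctl RG. Pcdha11, Pcdha10 and Pcdha3 changed by 4.46 ± 0.36, 4.27 ± 0.43 and 4.49 ± 0.38 in Ctl IP over Ctl RG.

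In control cultures the C-type alpha genes changed less than most alternates. Pcdhac2 had 9.89, 6.61 and 7.26 CPM in Ctl IP and 8.46, 5.54 and 5.06 in Ctl N, against 2.68, 1.84 and 1.66 in Ctl RG. Its log2 fold change was 2.21 ± 0.25 (SE) for Epi IP and 1.59 ± 0.25 for Epi N over Epi RG, and 1.93 ± 0.25 and 1.61 ± 0.25 for Ctl IP and Ctl N over Ctl RG, with no overlap. Pcdhac1 was scarcer, with means of 1.12 ± 0.360 CPM in Ctl IP and 0.296 ± 0.131 in Ctl RG, and changed by 1.83 ± 0.46 (SE). Among alternates the lowest change in Ctl IP over Ctl RG was that of Pcdha1, the first gene of the cluster, at 2.14 ± 0.50. Pcdha1 was the only alpha member not called in Ctl N over Ctl RG, with 0.359 ± 0.125 CPM in Ctl N and 0.207 ± 0.0791 in Ctl RG (log2 fold change 0.85 ± 0.55 SE, adjusted p = 0.255, edgeR). The difference between alternates and C-type genes was not tested.

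**Figure D4:**
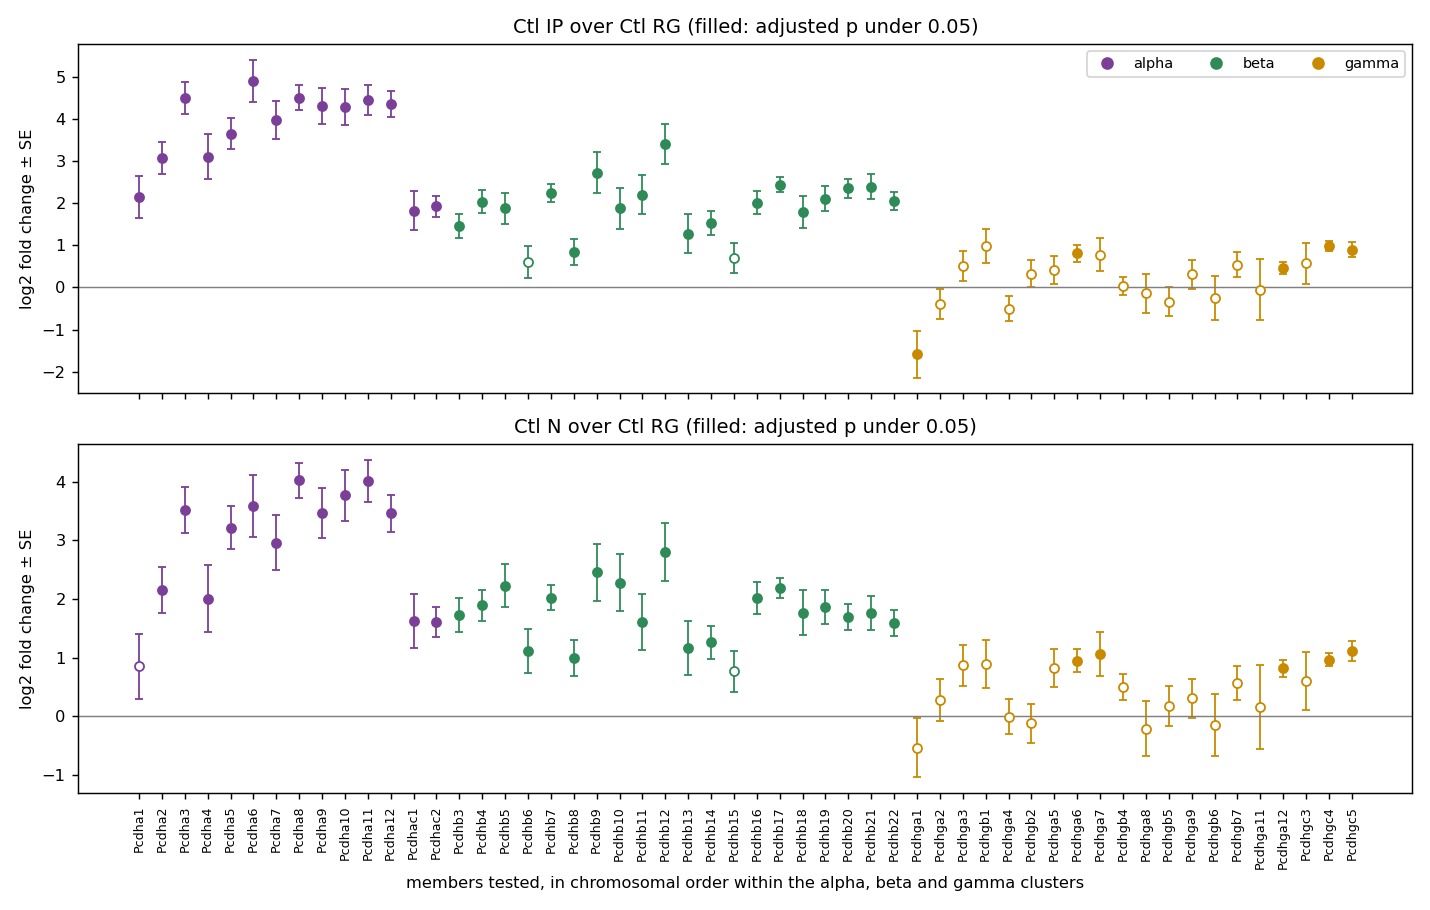
Log2 fold change ± SE (y axis) of the 54 tested members in chromosomal order within each cluster (x axis), for Ctl IP over Ctl RG (top) and Ctl N over Ctl RG (bottom). Filled points have an adjusted p under 0.05. In both panels 9 of the 12 alpha alternates lie above all beta members, and most gamma members have open points. Beta members lie between 0.60 and 3.41 in the top panel. Gamma members lie between -1.59 and 0.99 (median 0.37) in the top panel and between -0.54 and 1.11 (median 0.53) in the bottom panel.

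In the beta cluster, whose genes carry no constant exon and code for a short cytoplasmic tail, 20 of 20 tested members were higher in Epi IP than in Epi RG and 18 of 20 in Ctl IP than in Ctl RG. In N relative to RG, 20 of 20 were higher in Epi cultures and 19 of 20 in Ctl cultures. Median log2 fold changes were 1.84 and 2.03 for IP over RG and 1.42 and 1.76 for N over RG, in Epi and in Ctl cultures in that order. The background shares are those given for the alpha members.

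Pcdhb17 had 20.9, 23.9 and 22.0 CPM in Epi IP and 17.6, 18.7 and 18 in Epi N, against 3.71, 4.28 and 3.98 in Epi RG. In control cultures it had 17.8, 27.0 and 18.6 CPM in Ctl IP and 16.7, 16.9 and 19.4 in Ctl N, against 3.51, 4.75 and 3.52 in Ctl RG. All IP and N libraries were above all RG libraries. The log2 fold change of IP over RG was 2.48 ± 0.17 (SE) in Epi and 2.44 ± 0.18 in Ctl cultures (adjusted p = 5.56e-11 and 9.05e-11, edgeR).

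Pcdhb7, Pcdhb20, Pcdhb21 and Pcdhb22 rose by 2.25 ± 0.22, 2.36 ± 0.22, 2.39 ± 0.30 and 2.05 ± 0.22 (log2 ± SE) in Ctl IP over Ctl RG. Over the 20 tested beta members the range was 0.60 to 3.41. The members not called in Ctl IP over Ctl RG were Pcdhb6, at 2.00 ± 0.346 CPM in Ctl IP and 1.39 ± 0.937 in Ctl RG, and Pcdhb15, at 1.34 ± 0.130 and 0.778 ± 0.377. These names were chosen after their values were seen. Pcdhb6 libraries overlapped because replicate 2 of Ctl RG, at 2.40 CPM, was as high as the Ctl IP libraries. Without that library the log2 fold change of Pcdhb6 was 1.16 (adjusted p = 0.0172, edgeR). Pcdhb15 was also the beta member not called in Ctl N over Ctl RG. Without replicate 1 of Ctl RG its log2 fold change was 1.09 in Ctl IP and 1.16 in Ctl N (adjusted p = 0.0326 and 0.0248). limma called Pcdhb15 in both comparisons (adjusted p = 0.0389 and 0.0157).

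Most gamma members did not pass the test between populations. In IP relative to RG, 4 of 20 tested gamma members were higher and 0 lower in Epi cultures, and 4 were higher and 1 lower in Ctl cultures, where 18.6% of all genes were lower. In N relative to RG, 5 were higher and 0 lower in each of the treatments. Higher and lower calls summed were a smaller share of gamma members than of all genes in each comparison, and so were lower calls alone. Higher calls alone were a slightly smaller share in IP, where 23.2% of all genes were higher in Epi and 22.7% in Ctl cultures. In N they were a slightly larger share, beside 21.4% of all genes in Epi and 21% in Ctl cultures. These differences in share were not tested. The median log2 fold change of gamma members was 0.36 for Epi IP over Epi RG, 0.37 for Ctl IP over Ctl RG, 0.44 for Epi N over Epi RG and 0.53 for Ctl N over Ctl RG.

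Pcdhgc4 had 66.4, 70.9 and 57.2 CPM in Epi IP and 62.7, 64.1 and 65.5 in Epi N, against 33.2, 34.2 and 27.2 in Epi RG. In control cultures it had 60.3, 71.2 and 63.4 CPM in Ctl IP and 68.4, 61.0 and 62.8 in Ctl N, against 31.5, 35.1 and 31.7 in Ctl RG. Groups of IP and N did not overlap those of RG. The log2 fold change was 0.99 ± 0.12 (SE) in Ctl IP over Ctl RG (adjusted p = 3.29e-07, edgeR) and 0.97 ± 0.12 in Ctl N over Ctl RG (adjusted p = 4.6e-07).

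Pcdhga12 had 34.3, 38.8 and 41.1 CPM in Ctl IP and 45.9, 49.7 and 50.0 in Ctl N, against 23.7, 33.7 and 25.6 in Ctl RG. All Ctl N libraries were above all Ctl IP libraries, which were above all Ctl RG libraries. Relative to Ctl RG, Pcdhga12 rose by 0.47 ± 0.15 (log2 ± SE) in Ctl IP (adjusted p = 0.0137, edgeR) and by 0.82 ± 0.15 in Ctl N (adjusted p = 8.91e-05). The call in Ctl IP was lost when replicate 1 or 3 of Ctl RG or replicate 3 of Ctl IP was left out, with adjusted p of 0.0799, 0.0577 and 0.0594, and with limma (0.0700).

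The C-type gamma genes differed among themselves. Pcdhgc5, known to bind GABA-A receptors, averaged 15.6 ± 2.2 CPM in Ctl IP and 18.2 ± 0.983 in Ctl N, against 8.41 ± 1.49 in Ctl RG, and rose by 0.89 ± 0.18 and 1.11 ± 0.18 (log2 ± SE). Pcdhgc3, known from mice to promote dendrite branching of cortical neurons, had 1.91, 1.65 and 3.19 CPM in Ctl IP and 2.29, 1.55 and 3.11 in Ctl N, against 1.19, 2.35 and 1.23 in Ctl RG. Its groups overlapped, and it was not called (0.57 ± 0.49 SE for Ctl IP and 0.60 ± 0.49 for Ctl N over Ctl RG). In Epi cultures it had 1.74, 2.70 and 4.41 CPM in Epi IP and 2.47, 2.30 and 3.49 in Epi N, against 0.439, 0.864 and 2.79 in Epi RG, where replicate 3 stood above the others. There its log2 fold change was 1.11 ± 0.48 (SE) for IP (adjusted p = 0.0711, edgeR) and 1.01 ± 0.49 for N (adjusted p = 0.113), and both were called with the replicate number as a block (adjusted p = 0.00974 and 0.0143). Without replicate 3 of Epi RG the changes were 2.2 for IP and 2.1 for N (adjusted p = 0.00072 and 0.00125). limma called both (adjusted p = 0.00235 and 0.00554). Pcdhgc3 counts rest on 1821 unshared bases, since the antisense gene BC037039 lies on its exons, and unstranded libraries cannot tell reads of these genes apart.

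Among alternate gamma genes, Pcdhga6 had 8.06, 9.19 and 7.41 CPM in Ctl IP and 9.02, 8.37 and 9.64 in Ctl N, against 5.38, 4.47 and 4.11 in Ctl RG, with no overlap with Ctl RG. It rose by 0.81 ± 0.20 (log2 ± SE) in Ctl IP and 0.95 ± 0.20 in Ctl N over Ctl RG, and by 0.90 ± 0.20 in Epi N over Epi RG. In Epi IP over Epi RG it changed by 0.43 ± 0.20 and was not called (adjusted p = 0.0866, edgeR; 0.0342 with the block). It was called without replicate 1 of Epi RG or replicate 3 of Epi IP (adjusted p = 0.0468 and 0.0231). Pcdhga1, the first gene of the gamma cluster, was the lone member called lower against RG: it had 0.279, 0.0661 and 0.182 CPM in Ctl IP, against 0.487, 0.894 and 0.398 in Ctl RG (-1.59 ± 0.55 SE, adjusted p = 0.0245). Leaving out replicate 2 of Ctl RG, replicate 2 of Ctl IP or replicate 3 of Ctl IP ended that call (adjusted p = 0.110, 0.0836 and 0.0694), as did fits without the filter and with only the compared groups (0.0551 and 0.0598). In Ctl N over Ctl RG 8 gamma members were called higher with the block and 5 without it, where 7126 and 6168 of 29355 genes were. In the other comparisons against RG, the block also raised the gamma counts called higher. They went from 4 to 5 in Ctl IP, from 4 to 6 in Epi IP and from 5 to 7 in Epi N. With the block, 7487, 7579 and 7187 of 29355 genes were called higher there. Apart from Pcdhgc3 and Pcdhga6, whose blocked values are given above, the block added 2 members. They were Pcdhgb1 in Ctl IP (adjusted p = 0.0483, edgeR, and 0.0564 without the block) and Pcdhgb4 in Epi N (0.0046, and 0.0601 without). Pcdhgb1 averaged 1.27 CPM in Ctl IP and 0.626 in Ctl RG (0.99 ± 0.41 SE), and Pcdhgb4 13.02 CPM in Epi N and 9.08 in Epi RG (0.52 ± 0.22 SE). The remaining calls without the block were Pcdhga7 in Ctl N over Ctl RG, and Pcdhgb7 in Epi IP and Epi N over Epi RG. Pcdhgb1, Pcdhga7 and Pcdhgb7 were named after their values were seen.

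**Figure D5:**
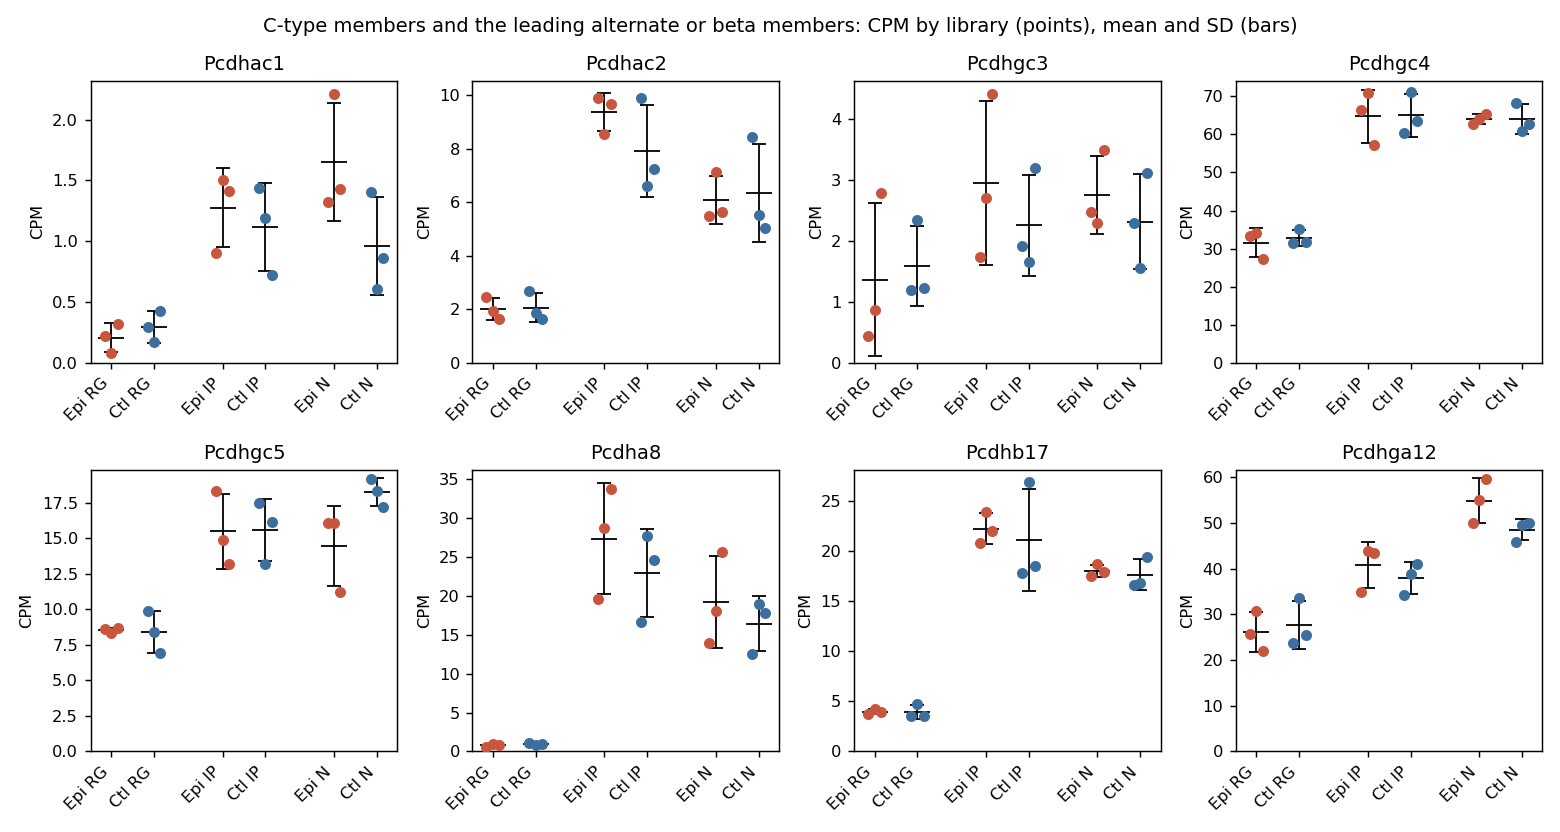
CPM (y axis, from 0) of the 5 C-type members and of the leading alternate or beta members Pcdha8, Pcdhb17 and Pcdhga12 in each library (points: red for Epi, blue for Ctl), with the mean and SD of each group of 3. Pcdha8 is at most 1.10 CPM in RG and at least 12.5 in all IP and N libraries, Pcdhgc4 lies between 27.2 and 35.1 in RG and between 57.2 and 71.2 in IP and N, and the Pcdhgc3 groups overlap.

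N relative to IP showed lower alpha levels. The log2 fold change of Ctl N over Ctl IP was below 0 for 14 of 14 alpha members (median -0.87, beside 0.03 over all genes), and 3 were called lower and 0 higher. Over all genes 7.74% were called lower, 2.6% higher and 10.3% either way. In Epi N over Epi IP, 13 of 14 were below 0 (median -0.86) and 2 were called lower, where 8.16% of all genes were called lower, 2.8% higher and 11% either way. Libraries did not overlap for 11 alpha members in Epi and 8 in Ctl cultures, all lower in N (16% of all genes in Epi and 12.8% in Ctl cultures). Higher calls made up 25.6% of all calls in Epi and 25.1% in Ctl cultures, and 43.0% and 37.1% with upper-quartile scaling. Comparisons of N with IP, N with RG and IP with RG share libraries, so their values are not independent of each other.

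Pcdha3 had 2.07, 2.34 and 1.90 CPM in Epi N, against 4.24, 4.87 and 4 in Epi IP, and 2.57, 2.27 and 1.47 in Ctl N, against 4.43, 4.30 and 3.67 in Ctl IP. It fell by 1.05 ± 0.29 (log2 ± SE) in Epi cultures (adjusted p = 0.02, edgeR) and by 0.97 ± 0.30 in Ctl cultures (adjusted p = 0.0362), without overlap. Pcdha12 fell by 0.90 ± 0.25 in Ctl cultures (adjusted p = 0.022) and Pcdha6 by 1.32 ± 0.37, although its Ctl libraries overlapped. Pcdha5 fell in Epi cultures by 1.31 ± 0.31 (adjusted p = 0.00527). In Ctl N over Ctl IP the calls of Pcdha3, Pcdha6 and Pcdha12 were lost without replicate 2 of Ctl IP, replicate 2 of Ctl N or replicate 3 of Ctl N. Without the last of these their adjusted p were 0.191, 0.132 and 0.133. Those of Pcdha3 and Pcdha12 were also lost without replicate 1 of Ctl IP (0.0965 and 0.0683) and with upper-quartile factors (0.0834 and 0.0567). With only the compared groups the calls of Pcdha3 and Pcdha6 were lost (0.0582 and 0.0965), and without the filter that of Pcdha3 (0.0516). In Epi cultures the Pcdha3 call was lost without replicate 2 of Epi IP, replicate 1 of Epi N or replicate 3 of Epi N (0.0839, 0.0641 and 0.0805), and with upper-quartile factors (0.0592).

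Of the 20 beta members, 1 was called lower in Ctl N than in Ctl IP and 0 in Epi N than in Epi IP. It was Pcdhb20, at 6.03, 7.37 and 6.05 CPM in Ctl N, against 7.62, 13.2 and 10.1 in Ctl IP (-0.66 ± 0.21 SE, adjusted p = 0.0442, edgeR). Leaving out any of 10 libraries ended that call, as did upper-quartile factors, no filter, only the compared groups and limma (adjusted p = 0.0662, 0.0675, 0.139 and 0.112). No gamma member was called by edgeR, with 2 of 20 at an unadjusted p under 0.05 in each of the treatments (21.4% of all genes in Epi and 20.7% in Ctl cultures). DESeq2 called 0 gamma members in Epi and 0 in Ctl cultures.

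More members, and more genes in all, were called in N over IP once replicate number entered the fit as a block. In Epi cultures 9 alpha members were then lower and 2 gamma members, Pcdhga6 and Pcdhga12, higher, beside 11.2% of all genes lower, 5.55% higher and 16.8% either way. In Ctl cultures 7 alpha members and Pcdhb20 were lower and 3 gamma members, Pcdhga2, Pcdhgb4 and Pcdhga12, higher, beside 10.6% of all genes lower, 5.27% higher and 15.8% either way. The gamma calls, 2 of 20 and 3 of 20, were all higher. They are near or below the share of all genes called either way but above the share called higher. That difference was not tested. Pcdhga12 then rose by 0.43 in Epi N over Epi IP (adjusted p = 0.00785, edgeR) and by 0.35 in Ctl N over Ctl IP (adjusted p = 0.0357).

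Markers of other neurons moved with the populations. The 6 Cajal-Retzius cell markers were all higher in Ctl IP than in Ctl RG and all lower in Ctl N than in Ctl IP. Their summed CPM was 26.2 to 52.7 in Ctl N, 266 to 320 in Ctl IP and 11.7 to 14.8 in Ctl RG. Of 8 interneuron markers, 6 were higher in Ctl IP and 6 in Ctl N than in Ctl RG, with sums of 115 to 222 CPM in Ctl IP, 11.1 to 162 in Ctl N and 8.27 to 23.2 in Ctl RG. Of 4 tested erythroid markers, 3 were higher in Ctl N than in Ctl RG, with sums of 57.9 to 154 CPM in Ctl N and 23.9 to 44.2 in Ctl RG. Markers of endothelial and mural cells, macrophages, oligodendrocyte precursors and meninges had 0 higher calls in Ctl IP or Ctl N over Ctl RG. The part of these cells in the protocadherin differences was not tested.

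No member passed the test for EPIREGULIN. In Epi RG against Ctl RG, Epi IP against Ctl IP and Epi N against Ctl N, and in their mean over the 3 populations, 0 of 54 tested members and 0% of all genes were called by edgeR, by DESeq2 and by limma. At an unadjusted p under 0.05, edgeR gave 5, 2 and 1 members in RG, IP and N and 2 in the mean, beside 1.63%, 1.82%, 2.56% and 2.86% of all genes. DESeq2 gave 5, 3, 1 and 5 members, beside 1.53%, 1.84%, 2.55% and 2.94% of all genes. With limma there were 6, 2, 3 and 6, beside 3.8%, 1.8%, 3.55% and 4.15%. The alpha sum was 0.960 times as high in Epi RG as in Ctl RG, 1.10 in IP and 1.09 in N, and the beta and gamma ratios ranged from 0.986 to 1.08. For each of these 9 ratios the Epi and Ctl libraries overlapped. Between libraries of the same replicate number, the alpha and gamma sums were higher in Epi IP than in Ctl IP in 3 of 3 pairs, and the gamma sum was lower in Epi RG than in Ctl RG in 3 of 3. The other 6 sums differed in direction between pairs, and 3 pairs cannot give a two-sided exact permutation p below 0.25.

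The lowest unadjusted p was that of Pcdhb16, a name chosen after its values were seen. It had 1.76, 1.96 and 1.48 CPM in Epi RG, against 1.17, 0.559 and 0.797 in Ctl RG, and 4.56, 5.85 and 5.50 CPM in Epi IP, against 3.07, 3.37 and 4.18 in Ctl IP. The Epi libraries lay above the Ctl libraries in both populations, a pattern that 2.32% of all genes showed in RG and 2.53% in IP. In N it had 3.44, 3.58 and 3.06 CPM in Epi N, against 2.76, 4.60 and 3.33 in Ctl N, which overlapped. Its log2 fold change was 0.98 ± 0.28 (SE) in RG, with an adjusted p of 1.00 (edgeR), and 0.58 ± 0.25 in IP.

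The differences of the Epi effect between populations were called for 0 of 54 members and 0% of all genes by edgeR, DESeq2 and limma. At an unadjusted p under 0.05, edgeR gave 2 members for IP against RG, 3 for N against RG and 0 for N against IP, beside 1.51%, 1.63% and 1.74% of all genes. For the leading members the treatment differences were small: Pcdhgc4 averaged 64.8 ± 6.97 CPM in Epi IP and 65.0 ± 5.64 in Ctl IP, and 64.1 ± 1.38 in Epi N and 64.1 ± 3.86 in Ctl N. A p that misses the threshold does not show that the treatments acted alike.

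Members also varied between replicates of a group. The median within-group SD of log2 CPM was 0.439 in alpha, 0.369 in beta and 0.400 in gamma members, beside 0.365 over all genes tested. In a fit with the replicate number as a term, that number was called for 2 of 14 alpha, 1 of 20 beta and 6 of 20 gamma members, beside 22.2% of all genes. The shares of members were 14.3%, 5% and 30%. Pcdhgb6 had 1.52, 2.53 and 5.30 CPM in replicates 1, 2 and 3 of Epi IP and 0.934, 2.36 and 3.34 in those of Epi RG. In Ctl N it had 0.935, 2.83 and 2.94 CPM and in Ctl RG 1.68, 2.63 and 3.16. Replicate 1 was the lowest in each of the 6 groups. Pcdha8, Pcdha10, Pcdhb20, Pcdhga2, Pcdhgb4, Pcdhga8, Pcdhga11 and Pcdhgc3 were the others called. The labels do not say what the replicate number stands for.

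Genes that act on or with the clusters were read from lists. Of 26 genes for chromatin and promoter choice, 8 were higher and 13 lower in Ctl N than in Ctl RG, with a median log2 fold change of -0.30, beside 21% higher, 17.7% lower and a median of 0.06 over all genes tested in that comparison. Rest, a repressor of neuronal genes, averaged 13.0 ± 6.16 CPM in Ctl N and 111 ± 2.45 in Ctl RG (-3.10 ± 0.26 SE, adjusted p = 1.38e-09, edgeR). Dnmt3a, a DNA methyltransferase, averaged 71.4 ± 13.1 CPM in Ctl N and 230 ± 9.23 in Ctl RG (-1.69 ± 0.12 SE). Tet3, which oxidises methylcytosine, rose by 0.89 ± 0.10 and Tet2 by 0.70 ± 0.10 in Ctl N over Ctl RG. Ctcf, which joins promoters of the alpha and gamma clusters to distant enhancers, averaged 124 ± 2.73 CPM in Ctl N and 96.6 ± 1.94 in Ctl RG (0.36 ± 0.09 SE, adjusted p = 0.0023), and the cohesin subunit Rad21 fell by 1.02 ± 0.16. Ctcf, Tet2 and Rad21 are given for their roles, after their values were seen.

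Of 24 genes for signalling partners of the protocadherins, 13 were higher and 1 lower in Ctl N than in Ctl RG (median 0.53), beside the same shares of all genes. Pak1, a kinase of the actin cytoskeleton, averaged 145 ± 5.40 CPM in Ctl N and 28.0 ± 1.57 in Ctl RG (2.37 ± 0.10 SE). Cyfip2, a subunit of the WAVE complex, rose by 1.46 ± 0.11, and Ptk2, a focal adhesion kinase that alpha and gamma protocadherins inhibit, by 1.06 ± 0.10. Fyn, a Src-family kinase, rose by 1.14 ± 0.13. Of 12 protocadherins outside the clusters, 6 were higher and 4 lower in Ctl N than in Ctl RG, where 21% and 17.7% of all genes were. Pcdh8 rose by 2.49 ± 0.18, Pcdh9 by 2.15 ± 0.19 and Pcdh20 by 3.24 ± 0.34, while Pcdh19 fell by 2.09 ± 0.23.

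Of 8 genes beside or between the clusters, 4 were higher and 1 lower in Ctl N than in Ctl RG, where 21% and 17.7% of all genes were. Rell2, Fchsd1, Diaph1 and Zmat2 rose by 2.65 ± 0.28, 1.39 ± 0.16, 1.04 ± 0.13 and 0.92 ± 0.13 (log2 ± SE). Taf7, a TFIID subunit whose gene lies between the beta and gamma clusters, averaged 27.1 ± 0.603 CPM in Ctl N and 44.6 ± 3.85 in Ctl RG, and fell by 0.72 ± 0.13.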

How the data were processed

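RNA of 18 cultured samples in 6 groups of 3 was sequenced with SmartSeq2, a full-length, unstranded method without molecular identifiers, per the labels' protocols. The authors deposited raw read counts per gene. Per the submitters' processing notes, bcl2fastq 2.20.0, cutadapt 2.6 and featureCounts 2.0.1 were used on GRCm39; aligner and counting options were not stated there. Headers for strand and gene type were exchanged in the table, and 92 of its 55508 rows were spike-ins, left out of library sizes and tests (at most 3.05e-05% of the counts). The table gives the symbol Pcdha11 to 2 rows; ENSMUSG00000007440 is Pcdha10 in GENCODE M39 and is called so here. Shared exons were read from that annotation, where 37 of 57 member starts and 25 ends are as in the table.

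Counts were fitted in R 4.3.3 with edgeR 4.0.16 (filterByExpr, 29355 genes; TMM factors; quasi-likelihood fit of the 6 group means, two-sided contrasts), and a gene was called where p, adjusted over all genes by Benjamini-Hochberg, was under 0.05. CPM values use TMM factors. Summed CPM, shares and effective isoform numbers were described without a test. The alternatives tried were RLE factors, upper-quartile factors, a fit without the filter, DESeq2 1.42.0, limma 3.58.1 (voom with quality weights), only the compared groups, the replicate number as a block, and leaving out each library. Counts were also simulated for Ctl IP against Ctl RG over 29355 genes. The test recovered 81 of 100 genes changed by a log2 of 1 and 100 of 100 changed by 2, with 10 false calls. Recovery was not split by expression level, so it does not give the power for members with low counts. In the real comparison 41.3% of all genes were called, a far larger share than was changed in the simulation. Intervals and SEs of counts cover the spread between samples, and PCR copies count as reads.

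Same-numbered libraries deviated together: over 11210 genes their correlation was 0.16 to 0.677 between Epi and Ctl of a population and 0.0946 to 0.669 between populations of a treatment, lowest for Ctl N and Ctl RG. Blocked values are therefore given where they change a call. For Ctl N against Ctl RG, whose correlations ran from 0.0946 to 0.604, only the counts called with the block are given.

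Members, gene lists and tests were chosen with earlier results of these data known. Named by rule were the 5 C-type members, the 4 other members of each cluster with the highest mean CPM, up to 3 called members per comparison, cluster and direction with the smallest p, and up to 4 called genes per list with the smallest p in Ctl N against Ctl RG. No sequence is printed.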

Additional observations from a re-analysis of the deposited data

How the results depend on the processing

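The counts of alpha and beta members called in IP over RG and N over RG stayed within 1.5 times the values given under all alternatives, in Epi and in Ctl cultures, as did the gamma counts except 2. In Ctl N over Ctl RG 8 gamma members were called with the replicate number as a block and 8 with limma, and in Ctl IP over Ctl RG the gamma count ran from 3 to 6 when 1 library was left out. N over IP depended on the choices most. In Ctl cultures, where 4 members were called, there were 1 with upper-quartile factors, 2 without the filter, 11 with the replicate block, 1 with only the compared groups and 7 with DESeq2, and 0 to 4 leaving out 1 library. In Epi cultures, where 2 were called, there were 5 with RLE factors, 11 with the block, 7 with only the compared groups, 13 with limma and 10 with DESeq2, and 1 to 4 leaving out 1 library. By cluster, the alpha count in Ctl cultures was 1 with upper-quartile factors, 7 with the block, 1 with only the compared groups, 6 with DESeq2 and 0 to 3 leaving out 1 library. In Epi cultures it was 5 with RLE, 1 with upper-quartile factors, 9 with the block, 6 with only the compared groups, 10 with limma, 9 with DESeq2 and 1 to 3 leaving out 1 library. The beta count in Ctl cultures was 0 with upper-quartile factors, without the filter, with only the compared groups and with limma, and 0 to 1 leaving out 1 library; in Epi cultures it was 2 with limma and 1 with DESeq2. The gamma count in Ctl cultures was 3 with the block and 0 to 1 leaving out 1 library; in Epi cultures it was 1 with upper-quartile factors, 2 with the block, 1 with only the compared groups, 1 with limma and 0 to 1 leaving out 1 library. The cause was not tested. No treatment comparison called a member under any alternative, the block included.

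Without TMM factors the ratio of summed CPM was 12 and 7.48 for alpha in Epi IP and Epi N over Epi RG. For beta it was 3.27 and 2.49 in Epi and 3.29 and 2.75 in Ctl cultures, and for gamma 1.30 and 1.42 in Epi and 1.22 and 1.37 in Ctl cultures, for IP and N over RG. Without the C-type members the alpha ratio was 21.1 and 13.2 in Epi and 18.8 and 11.8 in Ctl cultures. The gamma ratio was then 1.33 for Epi IP over Epi RG, 1.24 and 1.53 for Ctl IP and Ctl N over Ctl RG, 1.26 for Epi N over Epi IP and 1.24 for Ctl N over Ctl IP. Thinned to the smallest cluster total, effective isoforms were 7.72 for alpha in Epi RG, 14.2 for beta in Epi IP and 7.36 for gamma in Ctl N. Upper-quartile factors moved the median of all genes by -0.10 in Epi IP over Epi RG and by -0.11 in Ctl IP over Ctl RG (log2), and the gamma medians there were 0.25 and 0.26.

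Of the log2 fold changes between populations that were called for named members, 78 in all, 0 changed direction in 1950 refits and 44 refits lost the call; Pcdhac1 in Ctl N over Ctl RG lost it without replicate 1 of Ctl N (adjusted p = 0.0624, edgeR). Levels per kilobase of all exonic bases, an alternative chosen after seeing the data, are 9.11 CPM per kb for Pcdhgc4 and 5.82 for Pcdhga12. RG libraries held as few as 94 alpha counts, which limits the alpha fold changes against RG.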
